A study of Mus musculus with 12 samples.

Results

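The upper-layer neuron identity genes Cux1, Cux2, Pou3f1, Pou3f2, Pou3f3, Rorb, Mef2c and Lmo4 were followed across the 3 Med13l genotypes in embryonic mouse cortex. They were taken by symbol, matched to Ensembl IDs, by a rule that uses no measured value. The list itself was chosen with earlier results of these data known. All 8 of 8 were found among the 55335 genes of the count table and all 8 were among the 18844 genes that passed the filter on low counts. Bulk RNA-seq libraries came from E13.5 cortex of embryos from Med13l heterozygote matings. There were 3 libraries from embryos null for Med13l on both alleles (KO), 3 from embryos with 1 null allele (Het) and 3 from wild-type embryos (WT). Med13l encodes a subunit of the Mediator kinase module. Neither a Cre driver nor the strain background or the design of the null allele is given in the sources used here. Single-cell samples of the same genotypes were not analysed here.

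The cerebral cortex is built inside out: deep-layer neurons are born first, and upper-layer neurons later pass them on the way to the pial surface. At E13.5 mainly deep-layer neurons are being made. Upper-layer genes are at this stage read partly in progenitors and in other neurons. Cux1 and Cux2 encode CUT homeodomain factors. The Pou3f genes encode POU-homeodomain factors with overlapping functions in upper-layer production and migration. Rorb encodes an orphan nuclear receptor typical of layer 4, Mef2c a MADS-box factor of differentiating neurons, and Lmo4 a LIM-only protein that binds other factors but not DNA.

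Upstream sequences are shown for Pou3f2 and Pou3f3, which lay on opposite sides of the other libraries in Het 1. That of Mef2c, the member whose KO and WT libraries did not overlap, is shown too. The sequences are the 250 bases before the annotated start, read from RefSeq on GRCm38.p6, 5′ to 3′ on the gene's strand. An entry was found for 7 of the 8 members. Pou3f2 is read at chr4:22488367-22488616 (minus strand), Pou3f3 at chr1:42695518-42695767 (plus strand) and Mef2c, at its first start, at chr13:83503784-83504033 (plus strand). Capitals mark CCAAT on either strand (ATTGG when read from the other). The motif is shown because human CUX1 was first named CCAAT displacement protein.
Pou3f2: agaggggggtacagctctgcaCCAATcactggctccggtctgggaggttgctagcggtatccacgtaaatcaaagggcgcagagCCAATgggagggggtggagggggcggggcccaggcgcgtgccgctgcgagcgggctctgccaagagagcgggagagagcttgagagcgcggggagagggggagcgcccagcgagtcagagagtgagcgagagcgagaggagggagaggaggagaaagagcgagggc
Pou3f3: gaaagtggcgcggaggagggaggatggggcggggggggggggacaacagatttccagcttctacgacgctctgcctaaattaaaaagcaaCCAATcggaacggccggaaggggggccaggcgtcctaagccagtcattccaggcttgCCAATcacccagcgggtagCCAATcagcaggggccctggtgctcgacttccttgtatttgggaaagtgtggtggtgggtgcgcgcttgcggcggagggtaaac
Mef2c: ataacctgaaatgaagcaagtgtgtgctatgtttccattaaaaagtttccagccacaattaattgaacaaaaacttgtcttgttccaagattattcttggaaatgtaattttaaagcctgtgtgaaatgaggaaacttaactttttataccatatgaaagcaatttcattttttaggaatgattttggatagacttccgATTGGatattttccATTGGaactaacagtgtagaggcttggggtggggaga
CCAAT occurred 2 times in the Pou3f2 window, 3 times in that of Pou3f3 and 2 times in that of Mef2c. Over the 300-base windows that end 50 bases past the start, 5 of the 13 member windows held it (38.5%), against 37.4% of all 32851 promoter windows. The 300-base window at the first Mef2c start had a GC content of 35.7%, against 67.7% for Pou3f2, 60.3% for Pou3f3 and a median of 52.7% over all windows. Windows at the later Mef2c starts had 47% and 48.3%. These matches describe letters, not binding.

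Library totals ran from 37909377 to 52992392 counts, and the lowest count of any member in a library was 174 (Pou3f1 in KO 1). Med13l counts over the whole gene were not lower in the mutants: the log2 fold change was 0.14 in KO against WT (edgeR adjusted p = 0.901), so transcript level does not check the genotype labels. A pair of libraries stood apart. Het 1 had 657 CPM of the thalamic factor gene Tcf7l2, against 17.2 and 22.4 CPM in Het 2 and Het 3, 16.1 to 63.3 CPM in KO and 14.3 to 16.6 CPM in WT. KO 1 had the lowest pan-neuronal score, -0.93 on the log2 scale relative to the mean of all libraries, and Het 1 the highest, 0.95. Cortical markers were present in all libraries, among them the deep-layer gene Tbr1 at 228 to 360 CPM in KO, 52.8 to 347 CPM in Het and 367 to 374 CPM in WT. CPM is the count scaled to library size after TMM normalization. In bulk tissue, fewer cells of a type and less RNA per cell cannot be told apart.

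No member passed the test in any genotype comparison. In KO against WT, 0 of 8 had an edgeR adjusted p under 0.05, where 0.00531% of all tested genes did. The unadjusted p lay under 0.05 for 0 of 8 members, against 5.72% of tested genes, and DESeq2 and limma-voom also called 0 of 8. The log2 fold change was negative for 7 of 8 members and positive for Cux1, against 49.9% negative over all tested genes. Without KO 1 the signs split evenly, with Cux1 (0.11), Pou3f1 (0.10), Pou3f2 (0.10) and Lmo4 (0.005) positive. The median over the members was -0.18, and the median over all tested genes was 0.001. Mef2c was the single member with every KO library below every WT library, a state found in 7.56% of tested genes. The opposite state, every KO library above every WT library, held for 0 members and 7.44% of tested genes.

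Marker lists of other cells leaned in sign beside these counts. Pan-neuronal genes had a negative log2 fold change in KO against WT for 14 of 15 (median -0.39). They summed to 2615, 4213 and 5133 CPM in KO 1, KO 2 and KO 3, 4092 to 8383 CPM in Het and 4927 to 5478 CPM in WT. KO 1 was thus far the lowest, and KO 3 lay within the WT range. Meningeal and fibroblast markers were positive for 12 of 12 (median 0.70) and summed to 989 to 2214 CPM in KO, 630 to 928 CPM in Het and 616 to 1160 CPM in WT. Erythroid markers were positive for 11 of 11 (median 0.64) and summed to 3115 to 4647 CPM in KO, 2616 to 2944 CPM in Het and 2118 to 3033 CPM in WT. No gene of these lists passed the edgeR test, and their part in the values of the 8 genes was not tested.

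**Figure D1:**
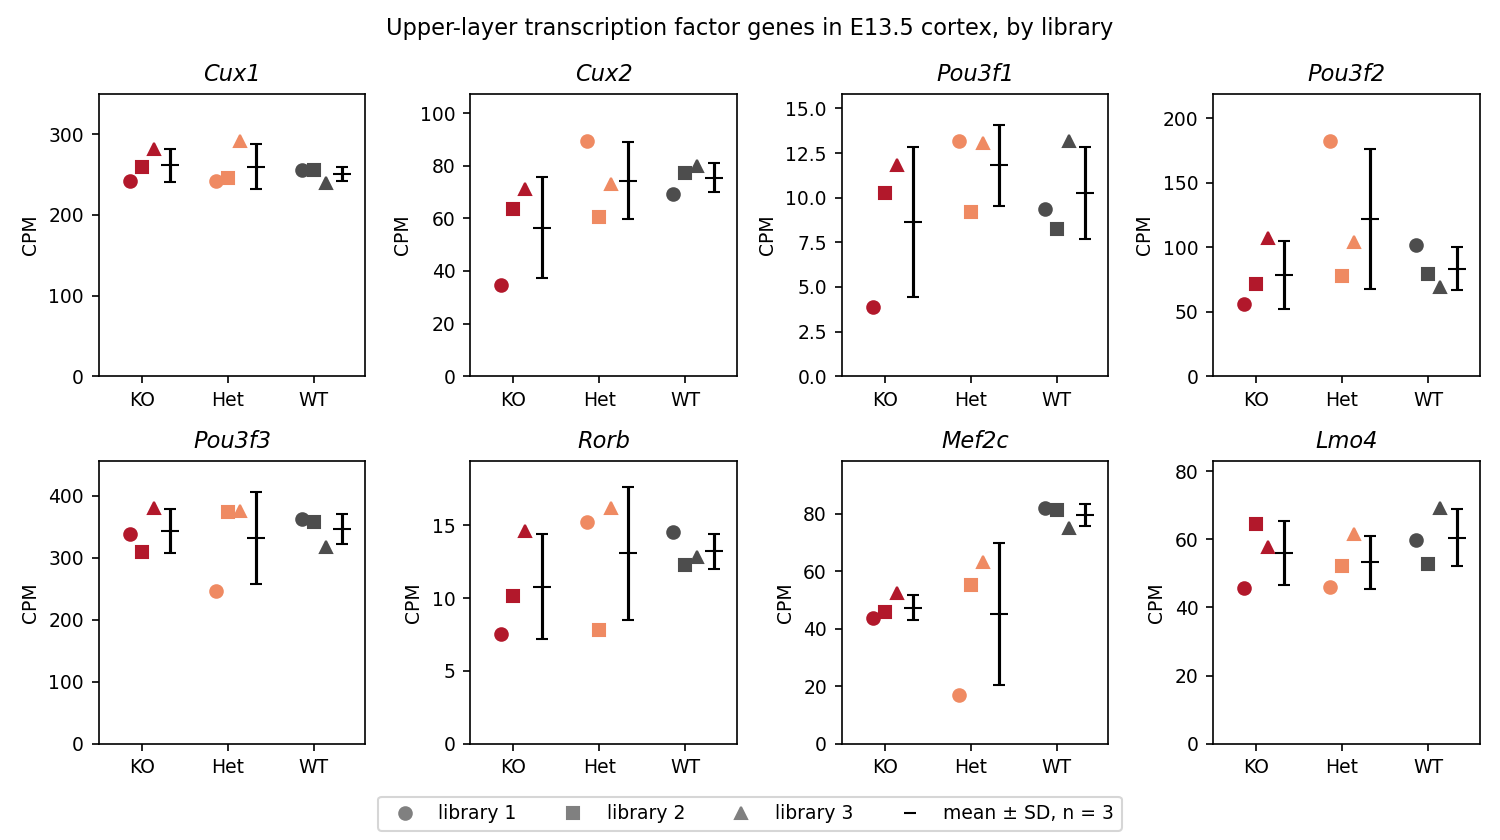
CPM (y axis, linear from 0) of the 8 genes in each KO, Het and WT library; symbols give the library number and black bars the mean ± SD (n = 3). Mef2c is the panel in which all KO and Het libraries lie below all WT libraries; KO 1 is the lowest library for Cux2, Pou3f1, Pou3f2, Rorb and Lmo4.

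Levels were compared between genes only per length, as CPM per kb of annotated exon. Pou3f3 was highest, at 46.0 ± 5.86 CPM per kb over the 9 libraries (SD). Pou3f2 followed at 16.9 ± 6.72, Lmo4 at 16.0 ± 2.28 and Cux1 at 12.9 ± 0.926 CPM per kb. Pou3f2 exceeded Lmo4 in 4 of 9 libraries, so these neighbours did not differ beyond their spread. Lower on the same scale stood Cux2 (6.82 ± 1.53), Mef2c (3.64 ± 1.33), Pou3f1 (2.66 ± 0.792) and Rorb (1.12 ± 0.288). Mef2c exceeded Pou3f1 in 8 of 9 libraries, and every other neighbouring pair kept its order in 9 of 9. Among tested genes, Pou3f3 stood at the 95.3rd percentile of these levels and Rorb at the 29.5th. Exon length was the union over all annotated transcripts, 14 for Cux1 and 31 for Mef2c.

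The members also differed in how steady they were. Within genotypes the SD of log2 CPM was 0.61 for Mef2c, 0.57 for Pou3f1, 0.48 for Pou3f2 and 0.44 for Rorb. It was 0.37 for Cux2, 0.23 for Pou3f3, 0.22 for Lmo4 and 0.11 for Cux1, against a median of 0.17 over the 12142 genes with a mean of at least 5 CPM. Mef2c and Pou3f1 stood at the 95.3rd and 94.6th percentile of that spread, and Cux1 at the 25.8th. Single libraries weigh heavily in the 2 highest values. Log2 CPM of Mef2c was 4.08 in Het 1, against 5.79 and 5.98 in Het 2 and Het 3. That of Pou3f1 was 1.97 in KO 1, against 3.37 and 3.57 in KO 2 and KO 3. In KO and WT, Mef2c kept to 5.45 to 5.71 and 6.23 to 6.36.

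**Figure D2:**
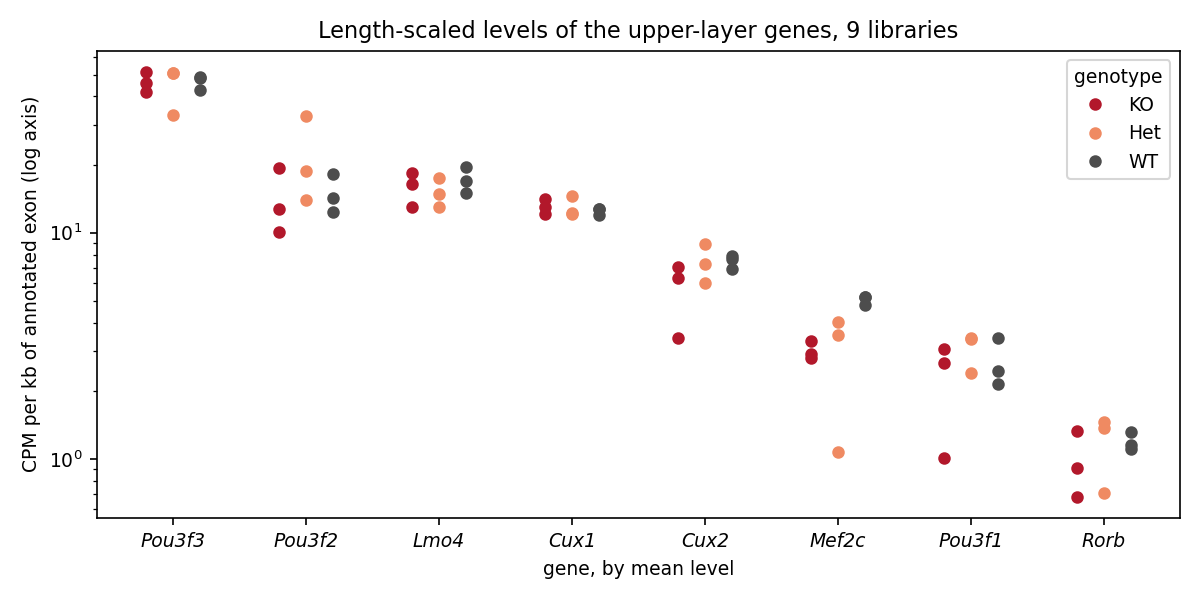
CPM per kb of annotated exon (log axis) for each gene, ordered by mean level; each point is 1 library, coloured by genotype, with KO left of Het and Het left of WT. Pou3f3 lies above the others at 33.2 to 51.3, and Rorb at the bottom at 0.681 to 1.46.

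Mef2c (chromosome 13, 83504034 to 83667080, plus strand) was the member with the lowest estimates against WT. It had 43.8, 46.0 and 52.3 CPM in KO 1, KO 2 and KO 3, and 16.9, 55.2 and 63.1 CPM in Het 1, Het 2 and Het 3, against 81.9, 81.3 and 75.0 CPM in WT 1, WT 2 and WT 3. All KO and all Het libraries lay below all WT libraries, and Het 1 was far below every other library. The means were 47.3 ± 4.42 CPM in KO, 45.1 ± 24.7 CPM in Het and 79.4 ± 3.86 CPM in WT (SD, n = 3).

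The log2 fold change of Mef2c in KO against WT was -0.75 (SE 0.38, 95% interval -1.62 to 0.13, edgeR adjusted p = 0.867). This is a fold of 0.596 with an interval of 0.325 to 1.09. The spread of Het 1 enters this test through the shared estimate: without Het 1 the edgeR unadjusted p was 3.2e-05 and the adjusted p = 0.273, with a log2 fold change of -0.75. With only the KO and WT libraries in the fit the adjusted p was 0.286. Within description letter D (2 libraries per genotype) the KO minus WT difference in log2 CPM was -0.86, and within letter F (1 each) it was -0.52.

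In Het against WT the log2 fold change of Mef2c was -0.82 (SE 0.39, 95% interval -1.69 to 0.06, edgeR adjusted p = 0.999). Without Het 1 it was -0.43 (edgeR adjusted p = 1). In that comparison 2.72% of tested genes had every Het library below every WT library. The KO and Het comparisons share their WT libraries, so the low Het values are no separate support for the KO values. KO against Het gave 0.07 (95% interval -0.80 to 0.94, edgeR adjusted p = 0.956), and -0.33 without Het 1.

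Mef2c is also read in endothelial cells and microglia. Endothelial and mural markers had a positive log2 fold change in KO against WT for 12 of 13 (median 0.62, 5 with an unadjusted edgeR p under 0.05 and 0 called), and microglial markers for 10 of 12 (median 0.39, 0 called). Their summed levels overlapped between KO and WT. Endothelial and mural markers (13 of 13 tested) summed to 468 to 882 CPM in KO, 392 to 476 CPM in Het and 367 to 613 CPM in WT. Microglial markers (12 of 12 tested) summed to 62.9 to 95.3 CPM in KO, 56.9 to 64.1 CPM in Het and 57.8 to 72.4 CPM in WT. Deep-layer markers (14 of 14 tested) summed to 1476 to 1902 CPM in KO, 1070 to 2305 CPM in Het and 2024 to 2248 CPM in WT, so that every KO sum lay below every WT sum. The same held for intermediate progenitor markers, at 794.5 to 1023 CPM in KO, 546.5 to 1246 CPM in Het and 1098 to 1132 CPM in WT, and for the list of partners and regulators, at 5093 to 6026 CPM in KO, 4173 to 7534 CPM in Het and 6369 to 6934 CPM in WT. Gene by gene, the log2 fold change in KO against WT was negative for 10 of 14 deep-layer and 11 of 12 intermediate progenitor markers. It was negative for 11 of 15 partners and regulators, and 0 genes were called in each list. Such sums weigh the most counted genes most, and no share over all genes stands beside them. The part of these lists in the Mef2c values was not tested.

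Cux1 was the steadiest member. It had 242, 260 and 282 CPM in KO, and 242, 245 and 292 CPM in Het, against 256.1, 256.1 and 240 CPM in WT. The genotypes overlapped. Its log2 fold change was 0.06 in KO against WT (95% interval -0.16 to 0.28, edgeR adjusted p = 0.95) and 0.05 in Het against WT (95% interval -0.16 to 0.27). The interval for KO against WT allows folds from 0.898 to 1.21. The Cux1 locus (chromosome 5, 136248135 to 136567490, minus strand) also yields transcripts for the Golgi protein CASP, and the counts do not part them. An antisense gene, Gm16599, overlaps it by exon.

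Cux2 lies on the same chromosome as Med13l, 3.09 Mb away (121856366 to 122050102, minus strand), and Cux1 lies 17.5 Mb away. Cux2 had 34.7, 63.7 and 71.0 CPM in KO 1, KO 2 and KO 3, and 89.5, 60.5 and 73.0 CPM in Het 1, Het 2 and Het 3, against 69.3, 77.3 and 79.8 CPM in WT 1, WT 2 and WT 3. KO 1 alone was far lower, and KO 3 reached into the WT range. The log2 fold change in KO against WT was -0.42 (SE 0.25, 95% interval -0.98 to 0.14, edgeR adjusted p = 0.872), and -0.17 without KO 1. Within letter D it was -0.64 and within letter F -0.17 on the log2 CPM scale. Het against WT gave -0.02 (95% interval -0.58 to 0.54).

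Cux2 per Cux1 count, which does not depend on library scaling, was 0.143, 0.245 and 0.252 in KO 1, KO 2 and KO 3. The same ratio was 0.370, 0.246 and 0.250 in Het 1, Het 2 and Het 3, against 0.271, 0.302 and 0.332 in WT 1, WT 2 and WT 3. Every KO library thus lay below every WT library in this ratio, while Het 1 was above and the other Het libraries below. Taken singly, Cux1 and Cux2 each overlapped between KO and WT. The ratio was formed after the values were seen and carries no test. No share over all gene pairs stands beside it.

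The single-exon gene Pou3f3 (chromosome 1, 42695768 to 42703176, plus strand) had 339, 310 and 380 CPM in KO and 246, 375 and 375 CPM in Het, against 362, 358 and 318 CPM in WT. Het 1 stood clear below the others. For Pou3f3 the log2 fold change was -0.01 in KO against WT (95% interval -0.38 to 0.35, edgeR adjusted p = 0.999). The flanking noncoding genes Pantr1 and Pantr2, on the opposite strand and not overlapping it, had log2 fold changes of -0.06 and -0.08 in KO against WT (edgeR adjusted p = 0.981 and 0.986). They were named outside the rule for named genes, as neighbours of Pou3f3.

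Pou3f2, whose product is also called Brn2, lies on chromosome 4 (22482780 to 22488366, minus strand, 1 exon). It had 56.1, 71.4 and 108 CPM in KO and 183, 78.1 and 105 CPM in Het, against 102, 79.4 and 68.9 CPM in WT. Het 1 was far higher than every other library. The KO libraries straddled the WT range. KO against WT gave a log2 fold change of -0.09 (edgeR adjusted p = 0.986, 95% interval -0.85 to 0.67). Het against WT gave 0.55 (SE 0.34, 95% interval -0.22 to 1.31, edgeR adjusted p = 0.999), and 0.13 without Het 1. KO against Het gave -0.64 (95% interval -1.40 to 0.13, edgeR adjusted p = 0.609), and -0.22 without Het 1.

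The paralogs Pou3f2 and Pou3f3, whose upstream windows are printed above, lay on opposite sides of the other libraries in Het 1. Pou3f2 per Pou3f3 count was 0.743 in Het 1, and between 0.165 and 0.283 in the other 8 libraries. Pou3f4, the X-linked class III paralog, had 98.0 CPM in Het 1 as well, against 7.5 and 27.8 CPM in the other Het libraries, 11.1 to 24.4 CPM in KO and 14.1 to 15.3 CPM in WT. Thalamic and diencephalic markers (11 of 13 tested; Irx2 and Foxb1 did not pass the filter) summed to 1609 CPM in Het 1, against 161 and 167 CPM in Het 2 and Het 3, 167 to 244 CPM in KO and 146 to 163 CPM in WT. Their part in the Pou3f values was not tested.

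Pou3f1, the product of which is also called Oct6, was the least counted Pou3f member (chromosome 4, 124656807 to 124660655, plus strand). It had 3.87, 10.3 and 11.8 CPM in KO 1, KO 2 and KO 3, and 13.2, 9.19 and 13.1 CPM in Het, against 9.39, 8.25 and 13.2 CPM in WT. KO 1 was the low library, while KO 2 and KO 3 lay within the WT range. KO against WT gave a log2 fold change of -0.25 (95% interval -1.12 to 0.62, edgeR adjusted p = 0.948), and 0.10 without KO 1. Of its 3818 words of 32 bases, 8.09% also occur in transcripts of other genes, 300 of them in the antisense gene Gm2164. For the other 7 members this share ran from 0 to 2.56%. Reads from Pou3f1 and Gm2164 may not be told apart where they overlap, since the strand setting of the counts is not given.

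Rorb (chromosome 19, 18930605 to 19111196, minus strand) had 7.55, 10.1 and 14.7 CPM in KO and 15.2, 7.85 and 16.2 CPM in Het, against 14.6, 12.3 and 12.8 CPM in WT. KO 1 and Het 2 were the low libraries, and KO 3 and WT 1 were nearly level. Its log2 fold change was -0.29 in KO against WT (edgeR adjusted p = 0.914, 95% interval -0.99 to 0.41), and -0.10 without KO 1. The Het value against WT was -0.01 (95% interval -0.71 to 0.68).

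Lmo4 (chromosome 3, 144188530 to 144205220, minus strand) had 45.9, 64.5 and 57.8 CPM in KO and 45.9, 52.2 and 61.6 CPM in Het, against 59.7, 52.8 and 69.2 CPM in WT. No genotype stood apart. Its log2 fold change was -0.11 in KO against WT (95% interval -0.48 to 0.25, edgeR adjusted p = 0.939) and -0.19 in Het against WT (95% interval -0.55 to 0.18).

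**Figure D3:**
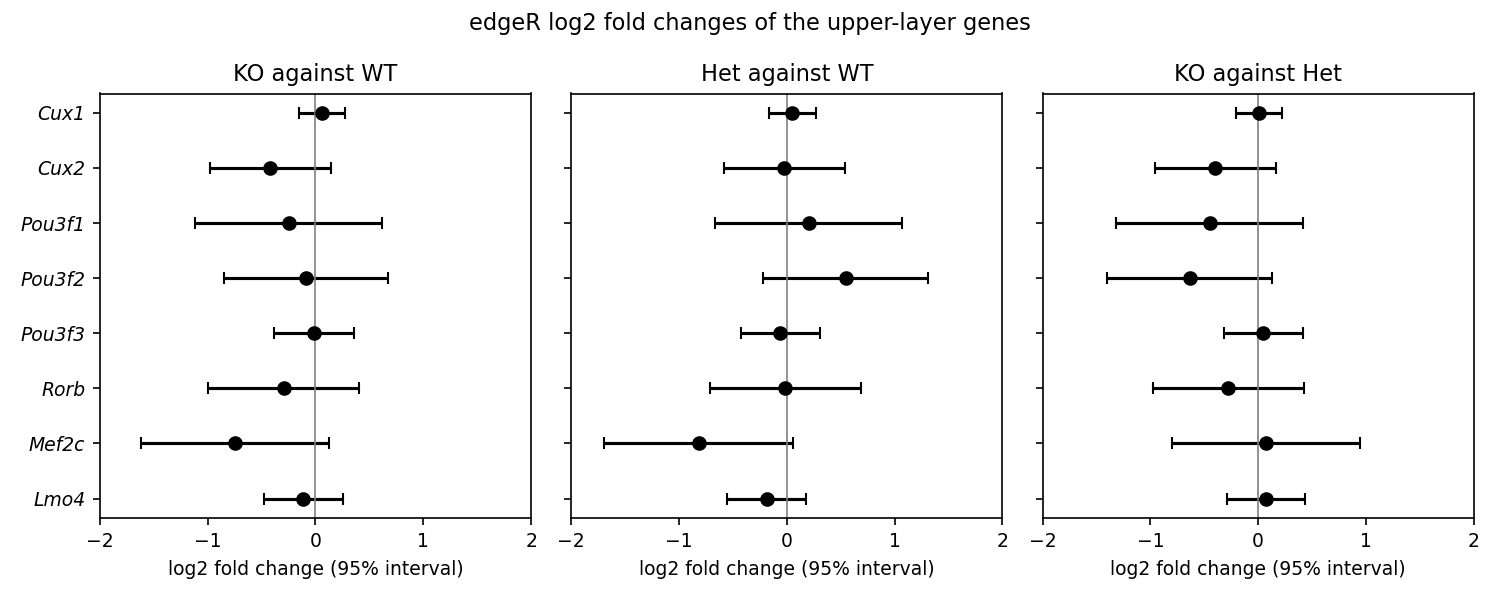
Log2 fold changes (x axis) of the 8 genes in KO against WT, Het against WT and KO against Het, with 95% intervals from the edgeR fit of all 9 libraries. Every interval includes 0; that of Cux1 is the narrowest (-0.16 to 0.28 in KO against WT) and Mef2c has the lowest estimates against WT (-0.75 and -0.82).

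In Het against WT, 0 of 8 members were called, as were 0% of tested genes. Unadjusted p-values under 0.05 were found for 0 of 8, against 1.56% of tested genes. DESeq2 and limma-voom also called 0 of 8 members. Log2 fold changes were negative for 5 and positive for 3 members, with a median of -0.02 against 0.002 over all tested genes, of which 49.5% were negative. Mef2c aside, no member had every Het library below every WT library, and 0 members had every Het library above, against 2.46% of tested genes. In KO against Het, 0 of 8 were called, against 0.00531% of tested genes, and 0 of 8 had an unadjusted p under 0.05, against 7.74%. The members split into 4 positive and 4 negative, where 51.0% of tested genes were negative. KO and Het libraries overlapped for all 8, while 6.05% of tested genes had every KO library above and 5.05% every KO library below every Het library.

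The description letter split the libraries another way: 2 libraries of each genotype carry D and 1 carries F, and the labels do not say what the letter stands for. In a fit with genotype and letter, all 8 members had a positive log2 fold change in F against D, with a median of 0.22 against -0.006 over all tested genes, of which 51.6% were negative. None of the 8 passed the edgeR test, against 0.0371% of tested genes, and 0 of 8 had an unadjusted p under 0.05, against 6.13%. F and D libraries overlapped for all 8, while 1.44% of tested genes had every F library above and 1.92% every F library below every D library. The values ran from 0.04 for Pou3f2 to 0.52 for Pou3f1 (95% interval -0.15 to 1.19, edgeR adjusted p = 0.932). All 15 tested pan-neuronal genes were positive in F against D too, with a median of 0.20. Ganglionic eminence markers were positive in F against D for 14 of 15 (median 1.59), and endothelial and mural markers negative for 13 of 13 (median -0.49). The ganglionic eminence markers summed to 358, 565 and 375 CPM in the F libraries KO 3, Het 3 and WT 3. Within D they ran from 86.7 CPM in Het 2 to 601 CPM in KO 2, the highest of all libraries. KO 1 carries D and Het 1 carries D. The part of these lists in the member values was not tested.

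Members were set beside the scores of the marker lists. Over the 9 libraries, Pearson's r of log2 CPM with the pan-neuronal score was 0.90 for Cux2, 0.85 for Pou3f1, 0.80 for Rorb and 0.85 for Pou3f2. Without Het 1 and KO 1, the libraries farthest out on that score, r over 7 libraries was 0.81 for Cux2, 0.75 for Pou3f1 and 0.85 for Rorb, but 0.29 for Pou3f2. Over 9 libraries r was 0.09 for Cux1 and 0.14 for Lmo4, and without Het 1 it was 0.46 for Cux1 and 0.84 for Lmo4. With KO 1 left out as well it was 0.29 for Cux1 and 0.67 for Lmo4. Pou3f3 (-0.56) and Mef2c (-0.40) had negative r, and without Het 1 these were 0.11 for Pou3f3 and 0.64 for Mef2c. Leaving out KO 1 too gave -0.10 for Pou3f3 and 0.43 for Mef2c. For Mef2c, r was 0.88 with the deep-layer score, 0.86 with that of partners and regulators, 0.85 with intermediate progenitors and 0.81 with the other upper-layer genes. Without Het 1 these were 0.83 for deep-layer genes, 0.62 for partners and regulators, 0.53 for intermediate progenitors and 0.87 for the other upper-layer genes. Without Het 1 and KO 1 they were 0.765, 0.398, 0.475 and 0.928, in the same order. Other lists had r values of like size. Over 9 libraries r was 0.81 for Lmo4 with ganglionic eminence, and 0.70 without Het 1 and KO 1. Pou3f3 had 0.90 with radial glia and -0.90 with the thalamic score, and 0.57 and -0.58 without Het 1. Cux2 had -0.83 with the meningeal score and Pou3f1 -0.81 with the microglial score. Mef2c had -0.86 with paralogs outside the list, 0.785 with radial glia and -0.79 with the thalamic score. Without Het 1 these were -0.57, -0.095 and 0.03. These r values compare genes read from the same libraries, so both sides share each library's depth and dissection. They have no test.

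**Figure D4:**
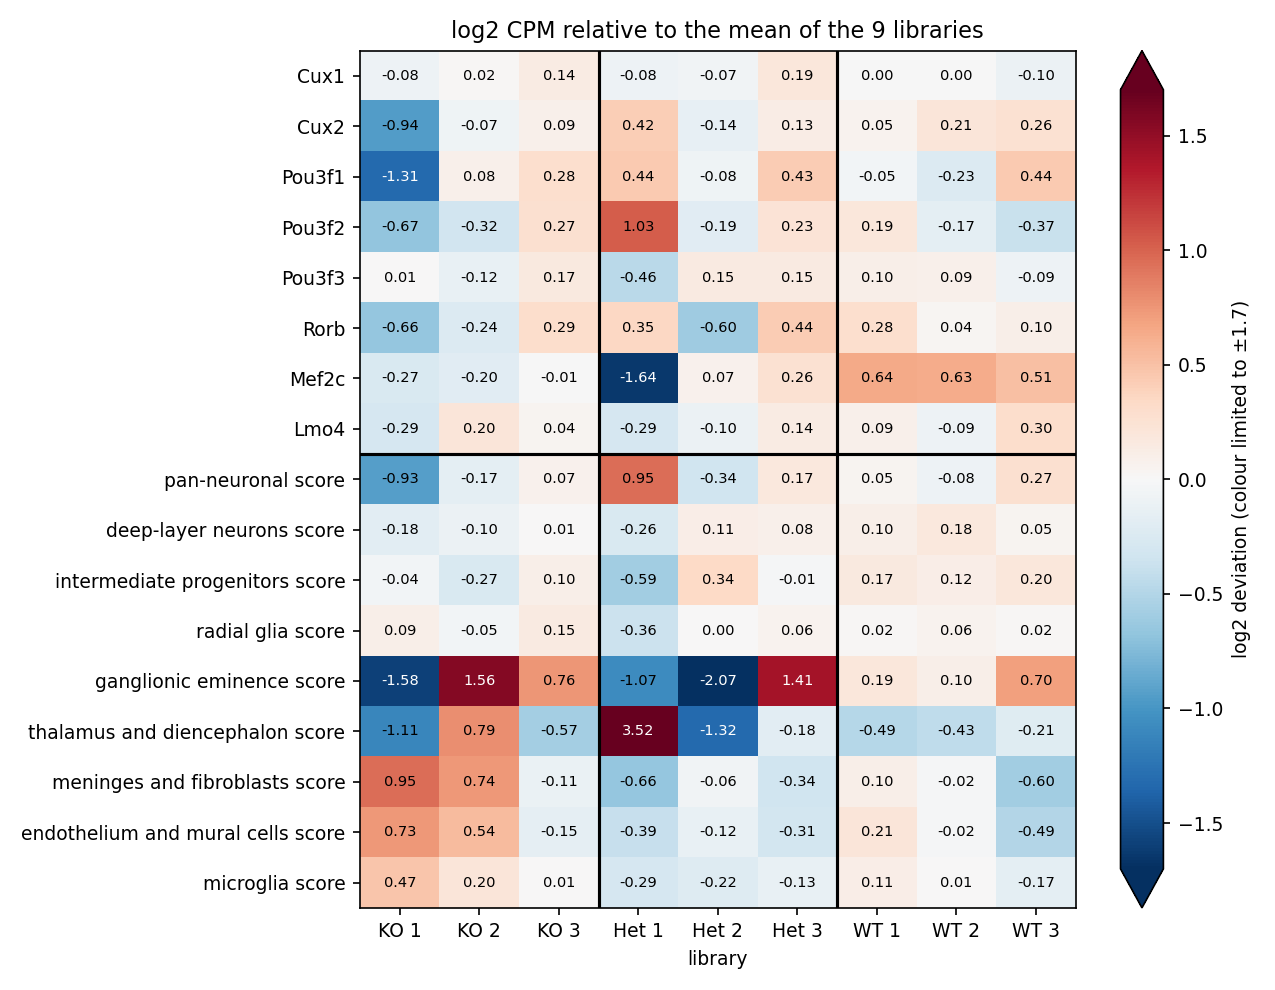
Log2 CPM of each gene, and mean log2 CPM of each marker list, relative to the mean of the 9 libraries (columns, KO then Het then WT; red higher, blue lower, colour limited to ±1.7). KO 1 is low for Cux2, Pou3f1, Pou3f2 and Rorb together with the pan-neuronal score, and Het 1 is high for Pou3f2 and low for Mef2c together with a thalamic score of 3.52.

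Genes with the most similar pattern were sought among 12130 other genes with a mean of at least 5 CPM, by Pearson's r over the 9 libraries. For Cux2 the closest were Abr (r = 0.991), Pde4dip (0.984) and Gdap1 (0.983), and for Cux1 Appbp2 (0.972), Nsd2 (0.952) and Vcan (0.935). For Pou3f2 they were Rab10os (0.991), 5031439G07Rik (0.969) and Kif5c (0.964), and for Pou3f3 Rai14 (0.979), Qser1 (0.978) and Syne2 (0.971). For Pou3f1 they were Lrp11 (0.955), Triobp (0.952) and Arhgap35 (0.949), and for Rorb Fgf14 (0.97), Sorcs1 (0.965) and Lcorl (0.953). Mef2c was closest to Ppp1r1b (0.98), Tmem108 (0.98) and Dync1i1 (0.965), and Lmo4 to Rai2 (0.917), Bbip1 (0.912) and Narfl (0.899). Without Het 1, r was 0.861 for Mef2c and Dync1i1 and 0.897 for Pou3f3 and Syne2. Each gene was picked as the highest of many candidates, so these r values only describe the 9 libraries. Both genes of a pair share each library's depth and dissection.

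Paralogs outside the list gave 0 of 9 calls in KO against WT and 0 of 9 in Het against WT. Mef2a had 75.7 ± 7.39 CPM in KO, 74.8 ± 7.25 CPM in Het and 76.5 ± 4.95 CPM in WT (SD, n = 3). Mef2d had 94.3 ± 7.39 CPM in KO, 91.4 ± 1.197 CPM in Het and 101 ± 6.70 CPM in WT (SD, n = 3). Log2 fold changes were -0.02 for Mef2a and -0.10 for Mef2d in KO against WT. Mef2b was nearly silent, with 3, 12 and 11 counts in KO and 4, 12 and 16 counts in Het, against 0, 1 and 1 in WT (edgeR adjusted p = 0.858 in KO against WT).

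Among the LIM-only paralogs, Lmo3 had 55.7 ± 4.80 CPM in KO, 97.5 ± 58.2 CPM in Het and 82.5 ± 10.4 CPM in WT (SD, n = 3). The Het mean rests on Het 1, with 164.7 CPM of Lmo3, against 62.8 and 65.0 CPM in Het 2 and Het 3, which lie below all WT libraries (73.3 to 93.7 CPM). Lmo1 had 15.7 ± 3.94 CPM in KO, 25.7 ± 11.9 CPM in Het and 18.0 ± 2.17 CPM in WT, with 39.0 CPM in Het 1, 21.7 CPM in Het 2 and 16.3 CPM in Het 3. Lmo2, a factor of blood and vessel cells, had 28.0 ± 8.03 CPM in KO, 20.9 ± 2.40 CPM in Het and 21.2 ± 2.001 CPM in WT. None of them passed the edgeR test (adjusted p in KO against WT = 0.875 for Lmo3, 0.954 for Lmo1 and 0.867 for Lmo2). Rora, a paralog of Rorb, had 7.13 ± 1.002 CPM in KO, 8.30 ± 4.98 CPM in Het and 5.01 ± 1.30 CPM in WT (SD, n = 3). Here too Het 1 stood apart, with 14.0 CPM, against 5.14 and 5.73 CPM in Het 2 and Het 3. KO against WT gave 0.51 for Rora on the log2 scale (edgeR adjusted p = 0.894).

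Other genes of upper-layer neurons were read from a list of 20, all tested. In KO against WT 0 of 20 were called, 14 were negative and 6 positive, and the median log2 fold change was -0.275. The lowest with at least 5 CPM were Unc5d, a netrin receptor gene (-0.85, edgeR adjusted p = 0.858), and Cdh13, which encodes T-cadherin (-0.83, edgeR adjusted p = 0.858). Unc5d had 24.2, 27.7 and 32.8 CPM in KO and 41.0, 52.3 and 41.6 CPM in Het, against 51.0, 57.6 and 44.2 CPM in WT. Cdh13 had 29.9, 41.6 and 48.7 CPM in KO and 64.2, 72.1 and 54.5 CPM in Het, against 66.1, 75.9 and 72.4 CPM in WT. For both genes every KO library lay below every WT library, as for 7.56% of all tested genes. The highest were the adhesion gene Nectin3 (0.26) and Dkk3 (0.15). In Het against WT 0 of 20 were called, 15 were negative and 5 positive, with a median of -0.13. Dtx4 (0.40) and Mdga1 (0.19) were highest, and Plxnd1 (-0.45) and Epha3 (-0.44) lowest.

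Partners and regulators of the members, 15 genes, also had 0 calls in KO against WT, with 11 negative and a median of -0.23. Ldb2, which encodes a LIM-domain-binding cofactor, was lowest at -0.48 (edgeR adjusted p = 0.858), with 18.3 ± 1.44 CPM in KO, 24.0 ± 3.10 CPM in Het and 25.6 ± 2.195 CPM in WT (SD, n = 3). Sox5, a factor of deep-layer neurons that is also in the deep-layer list, followed at -0.47 (edgeR adjusted p = 0.908). The class IIa histone deacetylase genes Hdac9 (0.09) and Hdac4 (0.08), whose products bind MEF2 factors, were highest. In Het against WT 0 of 15 were called, 11 were negative, and values ran from -0.31 for Nfib and Zbtb18 to 0.14 for Zbtb20.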

How the data were processed

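The authors deposited whole-number read counts per Ensembl gene for 9 bulk libraries, not normalized. Per the submitters' processing notes, FastQC 0.11.9, STAR and StringTie 2.2.1 and build mm10 were used; the counter, annotation and strand setting are not given in the sources used here, so overlapping and antisense genes are uncertain. Of 55335 IDs, 55154 had a symbol; positions are from GENCODE M21 on GRCm38.

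The test was edgeR's quasi-likelihood F (edgeR 4.0.16 under R 4.3.3), with TMM factors, filterByExpr by genotype, robust dispersions and all 9 libraries in 1 fit. P-values were adjusted by Benjamini-Hochberg over 18844 genes, with a threshold of 0.05. SEs and intervals derive from the F statistic. Scores are mean log2 CPM (prior count 2) relative to all libraries. The step was tested on simulated data. Alternatives used DESeq2 1.42.0, limma 3.58.1 and other settings.

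The members and lists were chosen with earlier results of these data known. All members and paralogs were named, except 1 paralog that is not reported here; of 2 lists, the 2 highest and 2 lowest by fold change with at least 5 CPM; of likeness, the 3 genes with the highest r. Each genotype has 3 brain tissues, per the labels; whether embryos shared a litter is not given.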

Additional observations from a re-analysis of the deposited data

How the results depend on the processing

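No member was called in any genotype or letter comparison under any of the alternatives run. With the replicate block, 0 members were called in KO against WT, Het against WT and KO against Het. Deviations of same-numbered libraries correlated at -0.27 to 0.27, and those of differently numbered libraries at -0.305 to 0.39. These ranges cannot tell whether libraries of the same number share a litter or batch. Library 3 of each genotype is the one that carries F. Of 616 recomputed member fold changes, 581 kept their direction and 35 turned, all of them uncalled. Without Het 1 and KO 1 together, KO against WT turned to 0.10 for Pou3f1, 0.10 for Pou3f2 and 0.006 for Lmo4 (log2). In the same setting Pou3f3 in Het against WT was 0.11, and KO against Het was 0.011 for Cux2, -0.12 for Pou3f3, 0.043 for Rorb and -0.27 for Mef2c. Embryo sex is not in the labels used here and was read from Xist against Y-linked genes. By that reading KO 1, KO 2, Het 2, WT 2 and WT 3 were male and the rest female. Sex was thus not balanced over genotype or letter. With embryo sex as a factor Pou3f2 in F against D was -0.20.

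Leaving out single libraries turned these values, given as lowest and highest. KO against WT ran from -0.55 to 0.10 for Pou3f1, -0.39 to 0.10 for Pou3f2, -0.094 to 0.055 for Pou3f3 and -0.23 to 0.005 for Lmo4. Het against WT ran from -0.037 to 0.10 for Cux1, -0.18 to 0.11 for Cux2, -0.16 to 0.11 for Pou3f3 and -0.19 to 0.25 for Rorb. KO against Het ran from -0.054 to 0.10 for Cux1, -0.13 to 0.14 for Pou3f3, -0.33 to 0.39 for Mef2c and -0.04 to 0.19 for Lmo4. F against D ran from -0.35 to 0.28 for Pou3f2. The causes were not tested.

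For Mef2c in KO against WT, the lowest and highest values with 1 library removed were -0.83 and -0.70. Over all tested genes, edgeR called 1 gene in KO against WT where DESeq2 called 17, 1 in KO against Het where DESeq2 called 26, 0 in Het against WT where DESeq2 called 1, and 7 in F against D where DESeq2 called 177; limma-voom called 1 in KO against WT, 0 in KO against Het, 0 in Het against WT and 8 in F against D. With the replicate block edgeR called 0 genes in KO against WT and 0 in KO against Het. With single libraries left out, edgeR called 0 to 1 in KO against WT and 1 to 14 in F against D. With 3 libraries per genotype, the KO against WT intervals of Pou3f1 and Pou3f2 include 1.5-fold changes both ways, and those of Cux2, Mef2c and Rorb include falls of that size.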
